A study of Homo sapiens with 12 samples.

Results

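The DRAIC experiment consists of 6 of the 12 RNA sequencing libraries in the series, and its 6 libraries are described here across all expressed genes. They were taken by their labels alone: 3 libraries labelled siDRAIC and 3 labelled siDRAIC-NC, each group numbered 1 to 3. All were made from total RNA of 769-P cells grown in RPMI1640 with fetal bovine serum. The line 769-P is an established one derived from a human renal carcinoma of the clear cell type. A small interfering RNA (siRNA) is a short duplex that directs the cleavage of a matching transcript. The siDRAIC-NC group is taken as the control of the siRNA named with it. The sources used here do not give the meaning of the letters NC, the siRNA sequences, the dose or the time of harvest. Whether the replicates of a group were separate cultures is left unsaid by the labels, so each p-value reflects spread among these samples alone, and that spread may be technical. Each library held 35221570 to 42760528 counts, and 15986 of 60617 gene IDs were expressed well enough to be tested.

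DRAIC is a long non-coding RNA, a transcript that acts without being translated, and both tumour-suppressing and tumour-promoting roles have been described for it. The title of the series links it to hnRNPA2B1, an RNA-binding protein that reads m6A, a methyl mark on adenosine, and to the insulin-like growth factor receptor IGF1R. Clear cell carcinoma arises from the tubular epithelium of the kidney. Its cells commonly lose the VHL protein, so that hypoxia-inducible factors stay active in normal oxygen.

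The RNA named by the siRNA was too rare to be followed. DRAIC (ENSG00000245750; chromosome 15, 69463026 to 69843120, plus strand, GRCh38) had 2, 1 and 2 counts in siDRAIC-NC libraries 1, 2 and 3 and 3, 6 and 0 counts in siDRAIC libraries 1, 2 and 3. The ratio of the summed counts, 9 against 5, was 1.76 (exact 95% interval 0.531 to 6.70, counting error only). A knockdown was not detectable at this depth, and the treated samples are therefore named by their label alone, as libraries labelled siDRAIC. In all that follows, 3 values in a row are those of replicates 1, 2 and 3, and CPM is a count scaled to the total of its library. HNRNPA2B1 measured 913, 704 and 721 CPM in the controls and 734, 531 and 728 CPM in the libraries labelled siDRAIC, with overlapping groups and no call in edgeR (log2 fold change -0.26, SE 0.14, adjusted p = 0.287). IGF1R measured 31.9, 20.1 and 26.1 CPM in the controls and 48.6, 47.7 and 50.4 CPM in the libraries labelled siDRAIC, so every treated library stood above every control. It rose by 0.91 on the log2 scale (SE 0.17) with the replicate number as a block (edgeR adjusted p = 4.85e-06), and missed the threshold without the block (edgeR adjusted p = 0.0538). Without pair 2 its call was lost too (edgeR adjusted p = 0.155).

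The libraries differed between replicate numbers as well as between groups. The first principal component of log2 CPM held 37.4% of the variance. It put siDRAIC-NC library 1 at -18.8 and the other controls at 35.7 and 49.9, with the libraries labelled siDRAIC between -40.1 and -3.03. Libraries of the same number deviated together, and the number was used as a pairing block. The log2 ratios within the pairs had a standard deviation across genes of 0.503, 0.662 and 0.652, and correlated across genes at 0.418 for pairs 1 and 2, 0.257 for pairs 1 and 3 and 0.409 for pairs 2 and 3. Genes are not independent replicates, and these correlations are descriptions only.

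Part of the difference between pairs moved with base composition. In the quintile of tested genes with the lowest GC content of the longest transcript, the median log2 ratio was -0.22 in pair 1, -0.094 in pair 2 and 0.255 in pair 3. In the quintile with the highest GC content it was 0.139, 0.012 and -0.25. Pairs 1 and 3 thus ran in opposite directions along GC content, while the medians of the paired estimate stayed at -0.022 and -0.028 in those quintiles. Its part in the calls was examined with offsets for GC content in the paired fit, an alternative chosen after seeing the data, which called 2045 genes and kept 1309 of the 1404 calls described next.

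**Figure D1:**
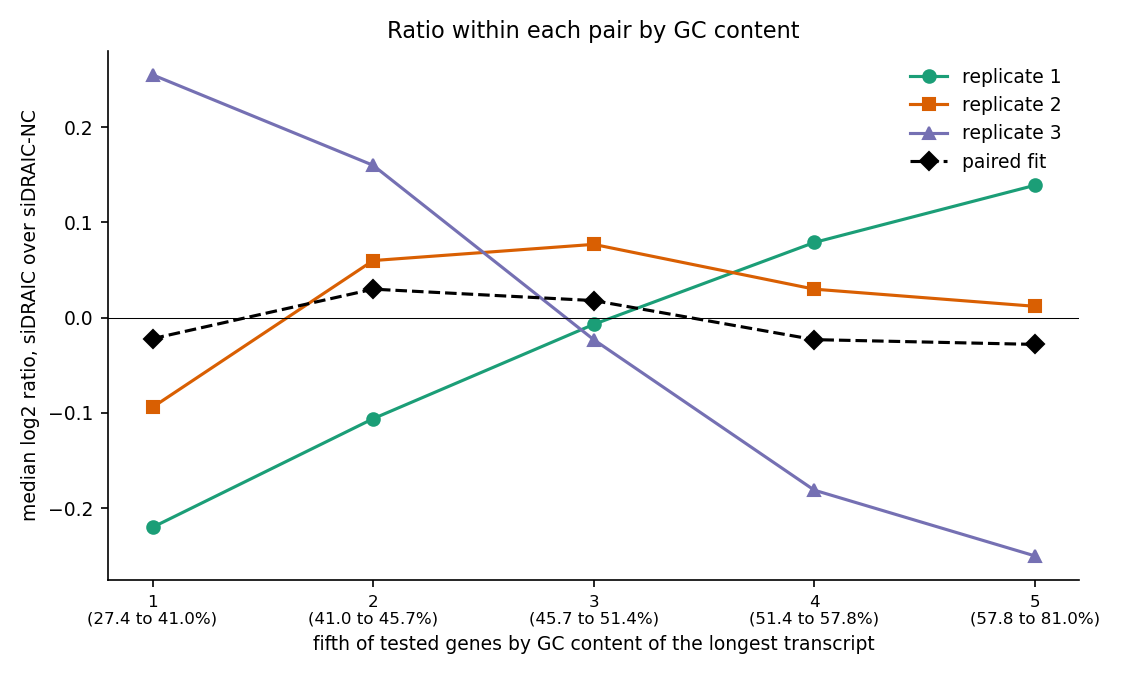
Median log2 ratio of siDRAIC over siDRAIC-NC within each pair of libraries (coloured lines) and in the paired fit (black dashes), for tested genes split into quintiles by GC content of the longest transcript. Pair 1 runs from -0.22 in the lowest quintile to 0.139 in the highest, pair 3 from 0.255 to -0.25, and the paired fit stays near 0.

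With the replicate number as a block, edgeR called 1404 of 15986 genes changed at an adjusted p below 0.05 (8.78%), 832 of them up (5.20%) and 572 down (3.58%). Without the block it called 114 (0.713%), 93 up (0.582%) and 21 down (0.131%), and all 114 were among the 1404; 1713 genes had an unadjusted p below 0.05. Among called genes the rises were larger than the falls. The median log2 fold change was 0.887 among the calls up and -0.644 among the calls down, and 338 up against 113 down changed at least 2-fold. Both medians are over genes chosen by the test, and calls up and down lay at different levels, as described below. In 1353 of the 1404 called genes all 3 pairs moved in the same direction, which 39.0% of all tested genes did. The groups did not overlap in 868 of the called genes and in 15.6% of all tested genes. The calls were drawn from these same libraries, so neither count is separate support for them. Leaving out pair 2 gave 262 calls (183 up, 79 down), 257 of them among the 1404. Leaving out pair 1 gave 1789 calls, 1177 of them among the 1404, and leaving out pair 3 gave 880, of which 700 were. In all, 204 genes were called whichever pair was left out.

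Calls were spread unevenly over levels and types of gene. Among the quintile of tested genes with the lowest mean level 2.72% rose and 1.13% fell, in the next quintile 8.04% rose and 2.88% fell, and in the most abundant quintile 4.25% rose and 5.25% fell. The estimates had a median of 0.14 in the lowest quintile and -0.059 in the highest. Of 12638 tested protein-coding genes 754 rose and 549 fell. Of 2138 tested long non-coding RNAs 62 rose and 17 fell, with a median of 0.11, and of 835 pseudogenes 8 rose and 5 fell. Of 518 antisense RNAs with an AS-type symbol 23 rose (4.4%, beside 5.20% of all tested genes) and 0 were called down in edgeR with the block, though 11 lay below 0 at an unadjusted p below 0.05. DESeq2 called 11 up and 0 down, and edgeR without the block called 0. The sources used here do not say whether counting used strand, so reads of such RNAs and of the genes they overlap cannot be told apart.

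**Figure D2:**
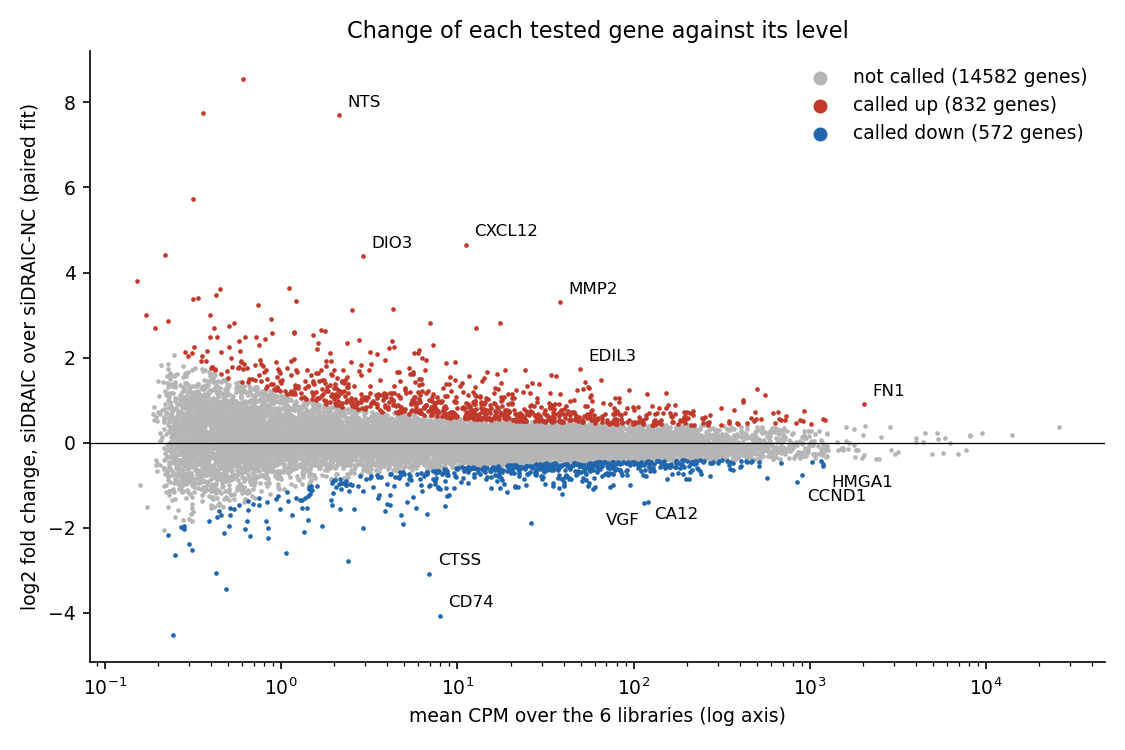
Log2 fold change of each tested gene in the paired fit against its mean CPM over the 6 libraries (log axis), red for the 832 genes called up, blue for the 572 called down and grey for the rest. The largest changes are upward and lie at low to middle levels, as for NTS, CXCL12 and MMP2, while CD74 and CTSS lead the labelled genes below 0.

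The genes that rose with the smallest p among those called in both the paired and the unpaired fit were mostly secreted or at the cell surface. Their control means ran from 0.0167 CPM (NTS) to 23.4 CPM (EDIL3). NTS and DIO3 passed the expression filter through their levels in the libraries labelled siDRAIC, so their low control levels are no separate finding. CXCL12 (ENSG00000107562; chromosome 10, 44370165 to 44386493, minus strand), a chemokine that signals through CXCR4, measured 1.45, 0.726 and 0.464 CPM in the controls and 25.1, 24.5 and 14.7 CPM in the libraries labelled siDRAIC. MMP2 (ENSG00000087245; chromosome 16, 55389700 to 55506691, plus strand), a gelatinase that degrades matrix, measured 12.1, 4.16 and 5.98 CPM and 84.6, 60.1 and 60.8 CPM. The groups did not overlap for either gene, and the log2 fold changes were 4.65 (SE 0.25, edgeR adjusted p = 1.14e-73) and 3.30 (SE 0.18, edgeR adjusted p = 4.87e-67). MMP2 shares exon sequence with an unnamed overlapping gene. NTS, the precursor of the peptide neurotensin, had 0, 2 and 0 counts in the controls and 84, 268 and 154 in the libraries labelled siDRAIC, a 248-fold ratio (exact 95% interval 68.3 to 2054, counting error only). DIO3, the deiodinase that inactivates thyroid hormone, measured 0.284, 0.150 and 0.309 CPM and 3.02, 4.58 and 9.02 CPM, highest in siDRAIC library 3 and above every control in all treated libraries. CPA4, a secreted carboxypeptidase, rose by 2.7 on the log2 scale, TM4SF4, a tetraspanin-like membrane protein, by 2.81, and SLC26A9, an anion transporter, by 3.15. EDIL3, a matrix protein bound by integrins, rose by 1.73. These 8 genes were also called whichever pair was left out.

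The genes that fell with the smallest p among those called in both fits included several of antigen presentation and complement. CD74 (ENSG00000019582; chromosome 5, 150401637 to 150412929, minus strand), the invariant chain that guides MHC class II molecules, measured 9.11, 12.1 and 24.0 CPM in the controls and 0.886, 0.935 and 0.696 CPM in the libraries labelled siDRAIC. CTSS (ENSG00000163131; chromosome 1, 150730196 to 150765957, minus strand), the lysosomal protease that cleaves that chain, measured 10.3, 9.02 and 17.7 CPM and 1.58, 0.795 and 2.19 CPM. For both, control 3 was the highest library and all treated libraries lay far below every control (log2 fold changes -4.07 and -3.08, edgeR adjusted p = 3.29e-52 and 5.69e-33). CA12 (ENSG00000074410; chromosome 15, 63321378 to 63382161, minus strand), a membrane carbonic anhydrase induced by hypoxia-inducible factors, measured 142, 168 and 184 CPM and 72.4, 76.7 and 43.5 CPM, again without overlap (log2 fold change -1.41, SE 0.15). The lysosomal membrane protein LAPTM5 fell by 2.77, the tetraspanin CD82 by 1.88, AMBP, which encodes alpha-1-microglobulin, by 1.91, the aldo-keto reductase AKR1B10 by 1.67 and the complement component C3 by 1.09 on the log2 scale. All 8 were called whichever pair was left out. The neuropeptide precursor VGF had a smaller p than several of them (log2 fold change -1.39, edgeR adjusted p = 1.95e-17) but was not called unpaired (edgeR adjusted p = 0.139).

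**Figure D3:**
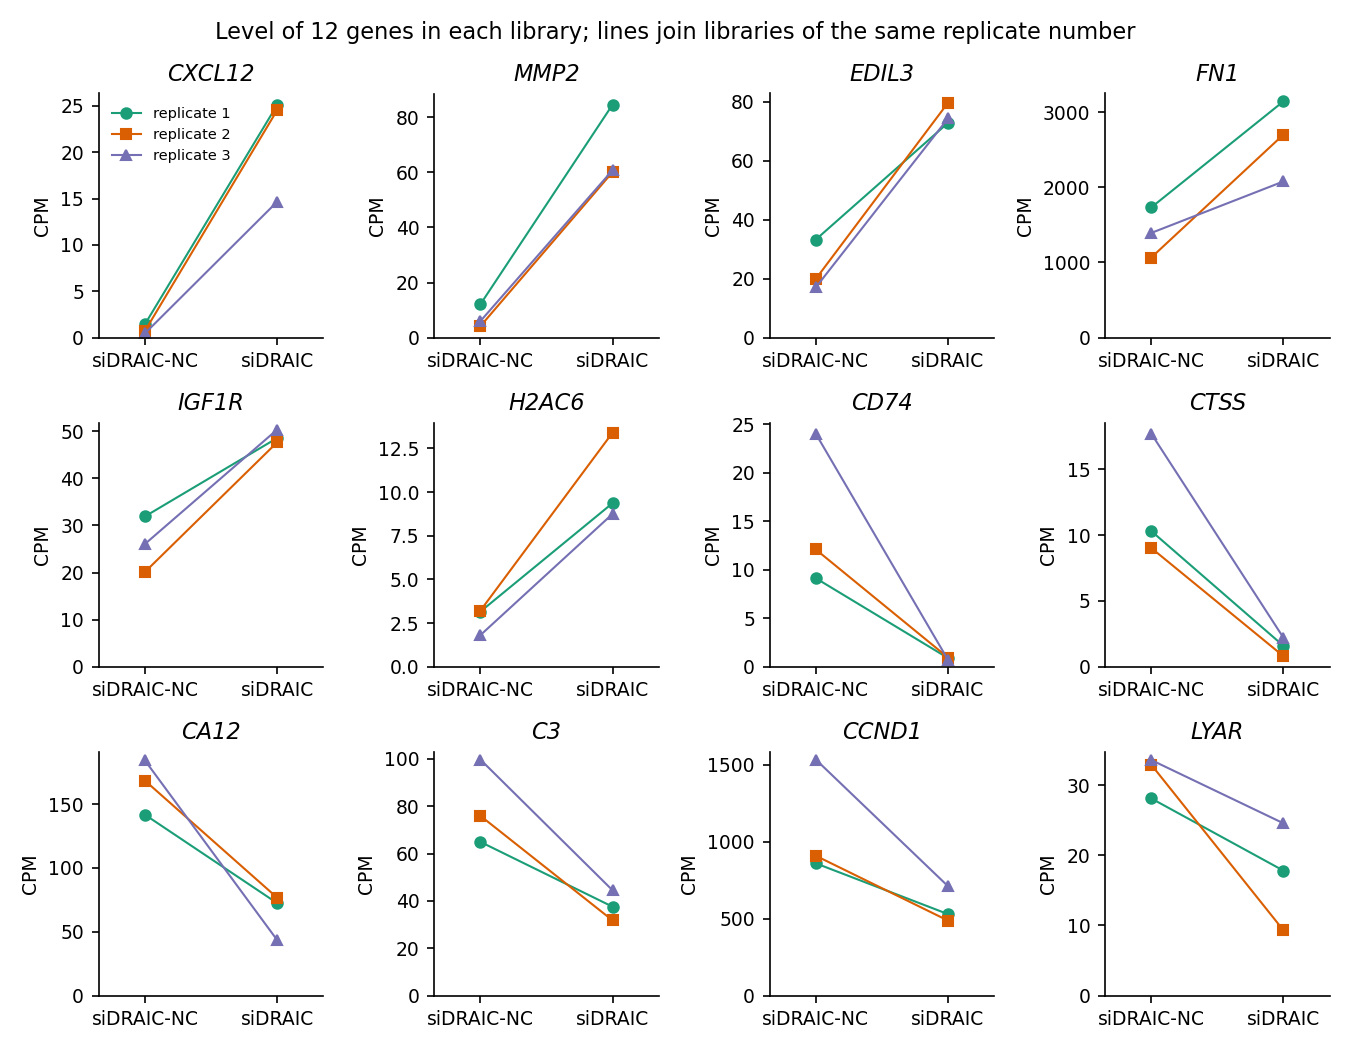
Level in CPM of 12 genes in each library, with lines joining libraries of the same replicate number and each axis starting at 0. All 3 lines rise for CXCL12, MMP2, EDIL3, FN1, IGF1R and H2AC6 and fall for CD74, CTSS, CA12, C3, CCND1 and LYAR.

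Among the most abundant genes the changes were smaller. FN1, which encodes the matrix protein fibronectin, measured 1732, 1065 and 1393 CPM in the controls and 3143, 2701 and 2078 CPM in the libraries labelled siDRAIC and rose by 0.90 on the log2 scale. The cytoskeletal linker MACF1 rose by 0.54, the membrane protein ITM2B by 0.56, the collagen chain COL18A1 by 0.43, the tight junction protein CLDN2 by 0.75, the spectrin SPTBN1 by 0.52, the receptor-like protein DCBLD2 by 0.53 and the amyloid precursor APP by 0.47. CCND1, the cyclin D1 gene, measured 860.5, 909.7 and 1535 CPM and 530.2, 488 and 712 CPM and fell by 0.93. The aldose reductase AKR1B1 fell by 0.76, the AP-1 subunit FOSL1 by 0.83, the autophagy receptor SQSTM1 by 0.54, the chromatin protein HMGA1 by 0.50, the nucleolar protein NPM1 by 0.45 and IGFN1 by 0.43. None of these genes was called in edgeR without the block (adjusted p = 0.0515 to 0.463, with CCND1 at 0.113). Only CCND1 of them kept its call without any 1 pair. FN1, for one, had an edgeR adjusted p of 0.104 without pair 2, and IGFN1 lost its call with the GC offsets. COL18A1, APP, IGFN1 and NPM1 were not called in DESeq2 (adjusted p = 0.0518 to 0.0718). COL18A1, CLDN2, CCND1, SQSTM1, MACF1, SPTBN1, DCBLD2, APP and IGFN1 share exon sequence with a neighbouring gene, so their counts may hold reads of it.

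Secreted ligands changed in both directions. The counts of this and all later lists stand beside 5.20% up and 3.58% down of all tested genes. Of 16 tested chemokines and interleukins 3 rose and 6 fell, with a median log2 fold change of -0.22 where that of all tested genes was -0.003. Beside CXCL12, the monocyte chemokine CCL2 (log2 fold change 1.21) and the epithelial cytokine TSLP (1.47) rose, both of them rare in the controls and with overlapping groups. CSF2, the granulocyte-macrophage colony-stimulating factor, measured 3.69, 12.7 and 21.8 CPM in the controls and 2.63, 2.50 and 8.03 CPM in the libraries labelled siDRAIC, lower in each pair although the groups overlapped (log2 fold change -1.48). CSF1 (-0.73), CX3CL1 (-0.73), IL18 (-0.78), IL32 (-0.59) and LIF (-0.43) also fell. Of these 9 genes only CXCL12 was called in the unpaired fit, and 2 rose and 1 fell without pair 2. In DESeq2 the list had 1 up, CXCL12, and 6 down. Of 37 secreted growth factors 8 rose and 5 fell (median 0.14; 2 and 1 unpaired). The bone morphogenetic protein BMP2 rose by 2.2, the procollagen protease BMP1 by 0.87, BMP6 by 1.48, the vasoconstrictor EDN1 by 1.74 and the EGF receptor ligands HBEGF by 0.62 and BTC by 0.64. STC1 (-2.10), PGF (-2.04), ANGPTL4 (-1.45), VEGFC (-0.79) and GDF15 (-0.76) fell, while VEGFA, the main angiogenic factor of this tumour type, measured 80.1 ± 11.9 against 80.5 ± 7.97 CPM (log2 fold change -0.01, edgeR adjusted p = 0.984). Of 11 peptide hormone and neuropeptide genes, NTS and DIO3 rose and VGF (-1.39) and AGT (-1.59), the angiotensin precursor, fell. Unpaired, the list had 2 up and 0 down, and in DESeq2 2 up and 1 down. AGT was rare (0.969 ± 0.388 against 0.319 ± 0.131 CPM). It was not called in DESeq2 (adjusted p = 0.0941), nor in edgeR without pair 1 or without pair 3. DIO3 in that list is an enzyme and not a hormone.

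Several genes of the fibrillar matrix rose. Of 25 tested fibrillar and associated matrix genes 9 rose (median 0.38), 5 of them also in the unpaired fit, and 5 rose without pair 2. None was called down in edgeR or DESeq2, though 8 estimates lay below 0, 2 of them at an unadjusted p below 0.05. THBS1, a matrix glycoprotein that binds CD47, measured 325, 306 and 239 CPM in the controls and 578, 687 and 884 CPM in the libraries labelled siDRAIC, with no overlap. It rose by 1.27, and its exons overlap FSIP1. The microfibril protein FBN1 measured 3.46, 1.55 and 1.6 CPM and 9.28, 8.51 and 9.69 CPM, and the collagen chain COL1A1 4.54, 1.5 and 1.86 CPM and 13.4, 7.60 and 8.64 CPM. Each was above all controls in all treated libraries (log2 fold changes 2.11 and 2.00). EDIL3 (1.73), COL6A3 (1.52), FN1 (0.90), TGFBI (0.72), the prolyl hydroxylase P3H2 (0.74) and the proteoglycan VCAN (0.54) completed the calls. Basement membrane genes were mixed, with 4 up and 2 down of 21 tested (median 0.07, 0 unpaired). COL4A5 (1.08), COL7A1 (0.56), LAMA3 (0.56) and COL18A1 rose, while the laminin chain LAMB3 (-1.15) fell. No member of the list was called without pair 2.

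Matrix proteases and their inhibitors moved in both directions, and 4 single integrin chains rose. Of 30 tested matrix proteases and inhibitors 9 rose and 5 fell (median 0.22; 3 and 0 unpaired; 5 and 3 without pair 2). Beside MMP2 and CPA4 the inhibitor SERPINE2 rose, from 121, 109 and 122 CPM to 179, 212 and 288 CPM (log2 fold change 0.90), as did MMP1 (0.81), MMP15 (0.71), MMP24 (0.71), ADAM12 (0.62), ADAM19 (0.67) and ADAMTS6 (0.85). PLAUR, the urokinase receptor, measured 25.4, 41.7 and 58.0 CPM in the controls and 19.3, 18.8 and 24.1 CPM in the libraries labelled siDRAIC and fell by 0.96. MMP9 (-2.19, near 1 CPM), ADAM8 (-1.22), PLAT (-0.64) and the inhibitor TIMP1 (-0.49) also fell. Of 31 tested integrin and adhesion genes 4 rose and 0 were called down in edgeR or DESeq2, with 0 lower at an unadjusted p below 0.05 (median 0.04). These were integrin chains: ITGB4 (1.70), ITGB8 (1.62), ITGB3 (0.92) and ITGAV (0.59), the partner chain of both ITGB3 and ITGB8. Unpaired, 2 of the list rose, ITGB8 and ITGB3, and without pair 2, 3 did. The groups overlapped for ITGB4 and ITGAV, and ITGAV was not called without pair 2 or without pair 3. ITGB3 measured 53, 49.2 and 48.8 CPM and 81.4, 100.2 and 110.2 CPM without overlap, and the abundant ITGA3 and ITGB1 had log2 fold changes of 0.02 and 0.33 and were not called.

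Signalling genes of the cell surface showed changes in single members. Of 30 axon guidance genes, which encode ligands and receptors that steer migrating cells, 7 rose (median 0.20; 3 up unpaired; 5 up without pair 2). None was called down in edgeR or DESeq2, and 2 were lower at an unadjusted p below 0.05. The ROBO ligand SLIT3 measured 21.4, 14.5 and 14.5 CPM in the controls and 47.5, 59.7 and 45.2 CPM in the libraries labelled siDRAIC, and RELN, a secreted ligand of lipoprotein receptors, 135, 62.6 and 90.8 CPM and 202, 217 and 209.8 CPM. Both groups were separate in each gene. The netrins NTN1 (1.71) and NTN4 (1.07), SEMA3F (0.74) and the netrin receptors UNC5A (0.99) and NEO1 (0.59) rose too. Of 19 Notch genes only the ligand JAG1 was called, at 314, 378 and 347 CPM and 775, 882 and 659 CPM (log2 fold change 1.13, edgeR adjusted p = 1.78e-12, also called unpaired). The Notch targets HES1 and HEY1 had log2 fold changes of 0.04 and -0.58 and were not called. In the TGF-beta list 7 of 27 rose and 3 fell (median 0.08, 0 unpaired). The latent TGF-beta binding proteins LTBP3 (1.00) and LTBP1 (1.38) rose and LTBP2 (-0.56) fell. Of the targets, CDKN2B (1.17), TGFBI (0.72), TAGLN (1.18) and CCN2 (1.00) rose, ID2 (-0.55) and BAMBI (-0.66) fell, and SMAD7 was at 0.19 with no call. Of 26 Wnt genes 2 rose and 2 fell, and of 26 YAP and TEAD targets 2 rose and 2 fell, with 0 called unpaired in either list. These counts, 7.7% each way, are close to the shares of all tested genes.

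Genes of insulin signalling and of its FOXO transcription factors rose more often than they fell, with 9 up and 2 down of 32 tested (median 0.23). FOXO factors are held inactive by insulin and PI3K signalling and switch on several of these genes when that signalling is low. SGK1, a kinase related to AKT, measured 29.6, 29.8 and 29.6 CPM in the controls and 56.5, 59.0 and 126 CPM in the libraries labelled siDRAIC. TXNIP, an inhibitor of glucose uptake, measured 33.8, 23.5 and 31.8 CPM and 76.5, 88.9 and 53.6 CPM, so both were separate between groups (log2 fold changes 1.31 and 1.26). IGF1R, the adaptor IRS1 (0.74), CCNG2 (0.94), KLHL24 (0.95), PIK3IP1 (1.07), CITED2 (0.65) and FOXO4 (1.07) rose as well. The adaptor IRS2 measured 205, 267 and 289 CPM and 126, 134 and 168 CPM and fell by 0.85, and the pseudokinase TRIB3 fell by 0.85. INSR, the insulin receptor, and FOXO1 and FOXO3 had log2 fold changes of 0.42, 0.19 and 0.09 and were not called. Unpaired, SGK1 and TXNIP rose and TRIB3 fell in edgeR, and without pair 2 the list had 2 up and 0 down.

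Targets of hypoxia-inducible factors fell more often than they rose, with 6 down and 1 up of 29 tested, though the median of the list was -0.06. CA12, CCND1 and ANGPTL4 (-1.45), the glucose transporter SLC2A1 (-0.48), the hexokinase HK2 (-0.50) and NDRG1 (-0.64) fell, and the mitophagy receptor BNIP3L rose (0.53). The factor itself, EPAS1, which encodes HIF-2 alpha, measured 15.5, 22.9 and 19.6 CPM in the controls and 11.2, 13.5 and 17 CPM in the libraries labelled siDRAIC, with overlapping groups and no call (log2 fold change -0.50, edgeR adjusted p = 0.0687). CA12 alone of the list was called unpaired, and 3 fell without pair 2. The call of BNIP3L was lost without the block, without pair 2 and in DESeq2, which called 6 down and 0 up.

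Amino acid and lipid supply genes fell in part. In the ATF4 list, genes that a stress-responsive factor uses to restore amino acid supply, 6 of 35 fell and 2 rose (median -0.15). TRIB3 measured 169.8, 229 and 198 CPM in the controls and 118, 113 and 103 CPM in the libraries labelled siDRAIC. The leucine transporter SLC7A5 measured 192, 369 and 234 CPM and 113, 125 and 203 CPM and fell by 0.86, its partner SLC3A2 by 0.50, the serine synthesis enzyme PSAT1 by 0.56, CHAC1 by 0.75 and GDF15 by 0.76. The groups were separate for TRIB3 and overlapped for SLC7A5, ATF4 itself was at -0.14 with no call, and only TRIB3 was called unpaired. ATF3 (0.64) and the glutamine transporter SLC38A2 (0.49) rose, though DESeq2 called 0 of the list up. No member was called without pair 2, and SLC7A5 lost its call with the GC offsets and in DESeq2 (adjusted p = 0.157). Of 33 cholesterol and fatty acid genes 4 fell (median -0.24; 0 called up in edgeR or DESeq2, 1 higher at an unadjusted p below 0.05; 0 called unpaired): MVD (-0.67), MVK (-0.65), DHCR7 (-0.52) and the sterol carrier STARD4 (-0.68). Of 33 NRF2 targets and aldo-keto reductases, which detoxify reactive compounds, 5 rose and 6 fell. AKR1C2 rose from 4.03, 1.63 and 2.04 CPM to 14.0, 11.2 and 10.8 CPM, AKR1B10 went from 15.5, 6.79 and 8.79 CPM to 2.71, 3.44 and 3.16 CPM, and NQO1, a standard NRF2 target, was at -0.18 with no call. Reads of these near-identical reductases may be divided between copies in ways the counts do not show.

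NF-kB genes had a median of -0.40, the lowest of the 33 lists of pathways and lineage genes. NF-kB is a family of transcription factors that switch on inflammatory and survival genes and their own inhibitors. Of 26 tested subunits and targets 12 fell and 2 rose in the paired fit, 2 fell unpaired, and 3 fell and 2 rose without pair 2. C3 measured 65.0, 76.0 and 99.7 CPM in the controls and 37.6, 31.8 and 44.5 CPM in the libraries labelled siDRAIC. The co-stimulatory receptor TNFRSF9 measured 3.18, 7.64 and 15.5 CPM and 1.88, 2.15 and 4.39 CPM and fell by 1.53, and BIRC3, an inhibitor of apoptosis, 69.4, 61.9 and 68.6 CPM and 45.3, 19.1 and 56.1 CPM and fell by 0.88. Among the subunits NFKB2 (-0.71) and RELB (-0.57), which form the non-canonical dimer, fell, and RELA (-0.18), NFKB1 (-0.22) and REL (-0.34) were not called. The inhibitors NFKBIA (-0.46) and NFKBIE (-0.53), the adhesion molecule ICAM1 (-0.59), the adaptor TRAF1 (-1.12), IL32, and the rare SAA1 (-3.07) and MMP9 fell as well. The adhesion molecule VCAM1 and CCL2, both commonly listed as targets, rose by 1.02 and 1.21, though DESeq2 called only VCAM1 up. The groups were separate for C3 and BIRC3 and overlapped for TNFRSF9, NFKB2, RELB, NFKBIA and NFKBIE. The summed share of counts of all listed genes overlapped between the groups as well.

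The promoters of BIRC3 and NFKBIA are shown because they hold a 10-base form of the kappaB motif, to which NF-kB dimers bind. It was searched on both strands, and the match is in capitals. Each run is the 250 bases before the RefSeq start site on GRCh38.p14, written in the direction of transcription. BIRC3 lies at chr11:102317234-102317483 on the plus strand and NFKBIA at chr14:35404750-35404999 on the minus strand.
BIRC3: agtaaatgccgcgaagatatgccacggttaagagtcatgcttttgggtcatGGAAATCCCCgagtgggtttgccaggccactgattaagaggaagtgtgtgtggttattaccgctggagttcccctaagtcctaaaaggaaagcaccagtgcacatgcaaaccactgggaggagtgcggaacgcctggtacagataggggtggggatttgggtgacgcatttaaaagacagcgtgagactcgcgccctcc
NFKBIA: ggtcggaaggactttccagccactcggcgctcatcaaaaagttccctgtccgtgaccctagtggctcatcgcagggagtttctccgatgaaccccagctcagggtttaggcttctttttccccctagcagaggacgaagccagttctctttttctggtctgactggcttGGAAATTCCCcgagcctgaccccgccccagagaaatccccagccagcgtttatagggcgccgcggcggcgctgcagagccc
Both genes fell in edgeR with the block but were not called in DESeq2 (adjusted p = 0.194 for BIRC3 and 0.0673 for NFKBIA) or in edgeR without the block. The match lies 199 to 190 bases before the start in BIRC3 and 81 to 72 bases before it in NFKBIA. In windows from 250 bases before to 50 after the start, the motif was in 1.92% of all 27195 windows. It was in 2.16% of the 11159 windows of tested genes and in 9 of the 20 tested list members with a window. It was in 4 of 7 members that fell and in 5 of 12 that were not called, so the match did not separate them.

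In the class II antigen presentation pathway single members fell. Of 13 tested class II and lysosomal antigen processing genes 3 fell, CD74, CTSS and LAPTM5, in the paired and the unpaired fit and without any 1 pair. Of the 13 estimates 6 lay above 0 and 7 below. The class II activator CIITA was rare (1.19 ± 0.270 against 1.75 ± 0.362 CPM) and not called (log2 fold change 0.52). Of 26 class I and peptide loading genes edgeR with the block called 0 and DESeq2 called 1, lower, with 3 lower and 0 higher at an unadjusted p below 0.05 (median -0.02). Among them HLA-B and B2M were at -0.04 and 0.08. Of 35 genes that process siRNAs or respond to double-stranded RNA, among them the slicer AGO2 (0.11) and the interferon-induced IFIT1 (0.37), edgeR and DESeq2 called 0 (median 0.09), with 5 higher and 2 lower at an unadjusted p below 0.05.

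Replication-dependent histone genes had the highest median of any list. Their mRNAs end in a stem-loop and mostly lack a poly(A) tail, so libraries selected for such tails recover few of them. Of 44 listed members 16 had enough counts to be tested and 8 rose, with a median log2 fold change of 1.02. None was called down in edgeR or DESeq2, and 0 were lower at an unadjusted p below 0.05. Unpaired, 2 rose, and without pair 2, 5 did. H2AC6 measured 3.15, 3.21 and 1.80 CPM in the controls and 9.36, 13.4 and 8.75 CPM in the libraries labelled siDRAIC. H2BC12 measured 6.44, 9.39 and 9.12 CPM and 12.1, 18.3 and 25.1 CPM, and the linker histone H1-2 3.72, 4.76 and 3.50 CPM and 7.92, 12.7 and 7.92 CPM. In each of the 3 genes all treated libraries lay above all controls. H2BC5 (1.71), H4C8 (1.38), H4C9 (1.02), H2BC4 (1.27) and H2BC15 (0.94) also rose. The 43 genes of the list took 0.00275 ± 0.000216% of counts in the controls and 0.00612 ± 0.000963% in the libraries labelled siDRAIC, with no overlap (exact permutation test, two-sided p = 0.1, the smallest possible with 3 against 3; Benjamini-Hochberg p = 0.186 over 13 shares). Histone copies are near identical, and reads may be divided between them.

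Histone promoters are shown because many hold several copies of CCAAT, the letters of the CCAAT box, which were searched on both strands and are in capitals. The runs are again the 250 bases before the RefSeq start on GRCh38.p14. H2AC6 lies at chr6:26123922-26124171 on the plus strand and H2BC12 at chr6:27146859-27147108 on the minus strand.
H2AC6: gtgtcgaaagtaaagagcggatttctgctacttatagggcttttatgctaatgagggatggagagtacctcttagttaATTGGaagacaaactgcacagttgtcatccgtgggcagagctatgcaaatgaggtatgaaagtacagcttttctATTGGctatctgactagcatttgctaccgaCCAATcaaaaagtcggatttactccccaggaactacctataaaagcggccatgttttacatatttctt
H2BC12: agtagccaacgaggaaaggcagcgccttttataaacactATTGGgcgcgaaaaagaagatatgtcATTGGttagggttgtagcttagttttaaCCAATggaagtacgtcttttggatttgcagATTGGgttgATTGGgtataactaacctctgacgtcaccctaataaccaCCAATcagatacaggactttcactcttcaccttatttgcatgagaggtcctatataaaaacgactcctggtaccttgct
The H2AC6 run holds 3 matches and the H2BC12 run 6. In the windows of 250 bases before to 50 after the start, 35.7% of all windows and 36.5% of those of tested genes had a match. So did 7 of 8 histone genes that rose and 8 of 8 that were not called. The window of H2AC6 shares 255 bases with that of H2BC4, which is transcribed the opposite way, and both genes rose.

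Among other cell cycle genes a few mitosis genes fell. Of 40 tested mitosis genes 8 fell (median -0.28), while 0 were called up in edgeR or DESeq2 and 0 were higher at an unadjusted p below 0.05. The kinase PLK1 measured 192, 325 and 311 CPM in the controls and 182, 187 and 174 CPM in the libraries labelled siDRAIC, and the anaphase activator CDC20 301, 500.0 and 473 CPM and 282, 278 and 269.7 CPM. AURKB (-0.44), ANLN (-0.50), KIF11 (-0.47), NUF2 (-0.63), HMMR (-0.67) and CENPF (-0.67) fell too. CENPF measured 282, 62.2 and 25.2 CPM in the controls and 234, 41.6 and 11.4 CPM in the libraries labelled siDRAIC. Its level thus differed far more between replicates of a group than between the members of a pair. In the unpaired fit and without pair 2, none of the 8 was called. Of the 40 estimates 36 lay below 0. Of 44 DNA replication genes the thymidine kinase TK1 fell (-0.42), a call lost without the block, without pair 2 and in DESeq2. The median was -0.20 with 39 estimates below 0, and PCNA was at -0.09. Of 29 p53 targets TP53INP1 (0.99), BTG2 (0.60) and ZMAT3 (0.49) rose, GDF15 fell, and CDKN1A, which encodes p21, was at -0.15 with no call. All 4 calls of that list were lost without the block and without pair 2.

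Nucleolar factors that build ribosomes fell in the largest number of any list, with 15 down of 50 tested and a median of -0.35. None was called up in edgeR or DESeq2, and 0 were higher against 33 lower at an unadjusted p below 0.05. LYAR measured 28.1, 32.9 and 33.6 CPM in the controls and 17.8, 9.31 and 24.6 CPM in the libraries labelled siDRAIC. RRP9, a subunit of the small-subunit processome, measured 21.9, 46.8 and 49.1 CPM and 20.2, 19.1 and 23.9 CPM. The abundant nucleolar protein NPM1 measured 1348, 1039.5 and 1123 CPM and 858, 661 and 1143 CPM. The groups were separate for LYAR and overlapped for RRP9 and NPM1, and replicate 2 was the lowest treated library in all 3 genes. BOP1 (-0.51), RRS1 (-0.56), MYBBP1A (-0.57), EMG1 (-0.59), UTP4 (-0.54), NOP16 (-0.58), NOP58 (-0.54), DDX21 (-0.46), RRP12 (-0.48), NOB1 (-0.48), UTP20 (-0.46) and BRIX1 (-0.50) fell as well. Without pair 2, and in the unpaired fit, no member was called, while 18 fell without pair 1 and 16 without pair 3. The list took 0.592, 0.617 and 0.626% of counts in the controls and 0.466, 0.414 and 0.591% in the libraries labelled siDRAIC, without overlap (exact permutation test, two-sided p = 0.1, Benjamini-Hochberg p = 0.186). Over counts without mitochondrially encoded genes the groups overlapped (exact permutation p = 0.2).

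The promoters of 2 small-subunit processome genes are shown for the E-box CACGTG, which is bound by MYC-family factors, with the letters in capitals and both strands searched. UTP4 lies at chr16:69132399-69132648 and UTP20 at chr12:101279855-101280104, both on the plus strand.
UTP4: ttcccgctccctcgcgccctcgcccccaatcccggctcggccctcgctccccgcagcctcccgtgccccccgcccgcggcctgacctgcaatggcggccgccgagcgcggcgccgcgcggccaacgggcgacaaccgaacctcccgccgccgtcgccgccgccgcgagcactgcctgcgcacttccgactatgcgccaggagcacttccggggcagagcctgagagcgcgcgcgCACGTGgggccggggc
UTP20: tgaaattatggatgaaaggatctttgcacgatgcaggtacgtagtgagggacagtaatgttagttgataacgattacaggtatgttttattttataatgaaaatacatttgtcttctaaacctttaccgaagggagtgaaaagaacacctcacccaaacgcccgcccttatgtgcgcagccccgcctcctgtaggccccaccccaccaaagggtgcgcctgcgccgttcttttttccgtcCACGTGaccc
UTP20 was not called in DESeq2 (adjusted p = 0.0941). The match lies 16 to 11 bases before the start in UTP4 and 10 to 5 bases before it in UTP20. An E-box was in 7.45% of all windows and in 9.96% of those of tested genes. It was in 4 of 11 nucleolar genes that fell and in 11 of 32 that were not called, so again it did not separate them.

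**Figure D4:**
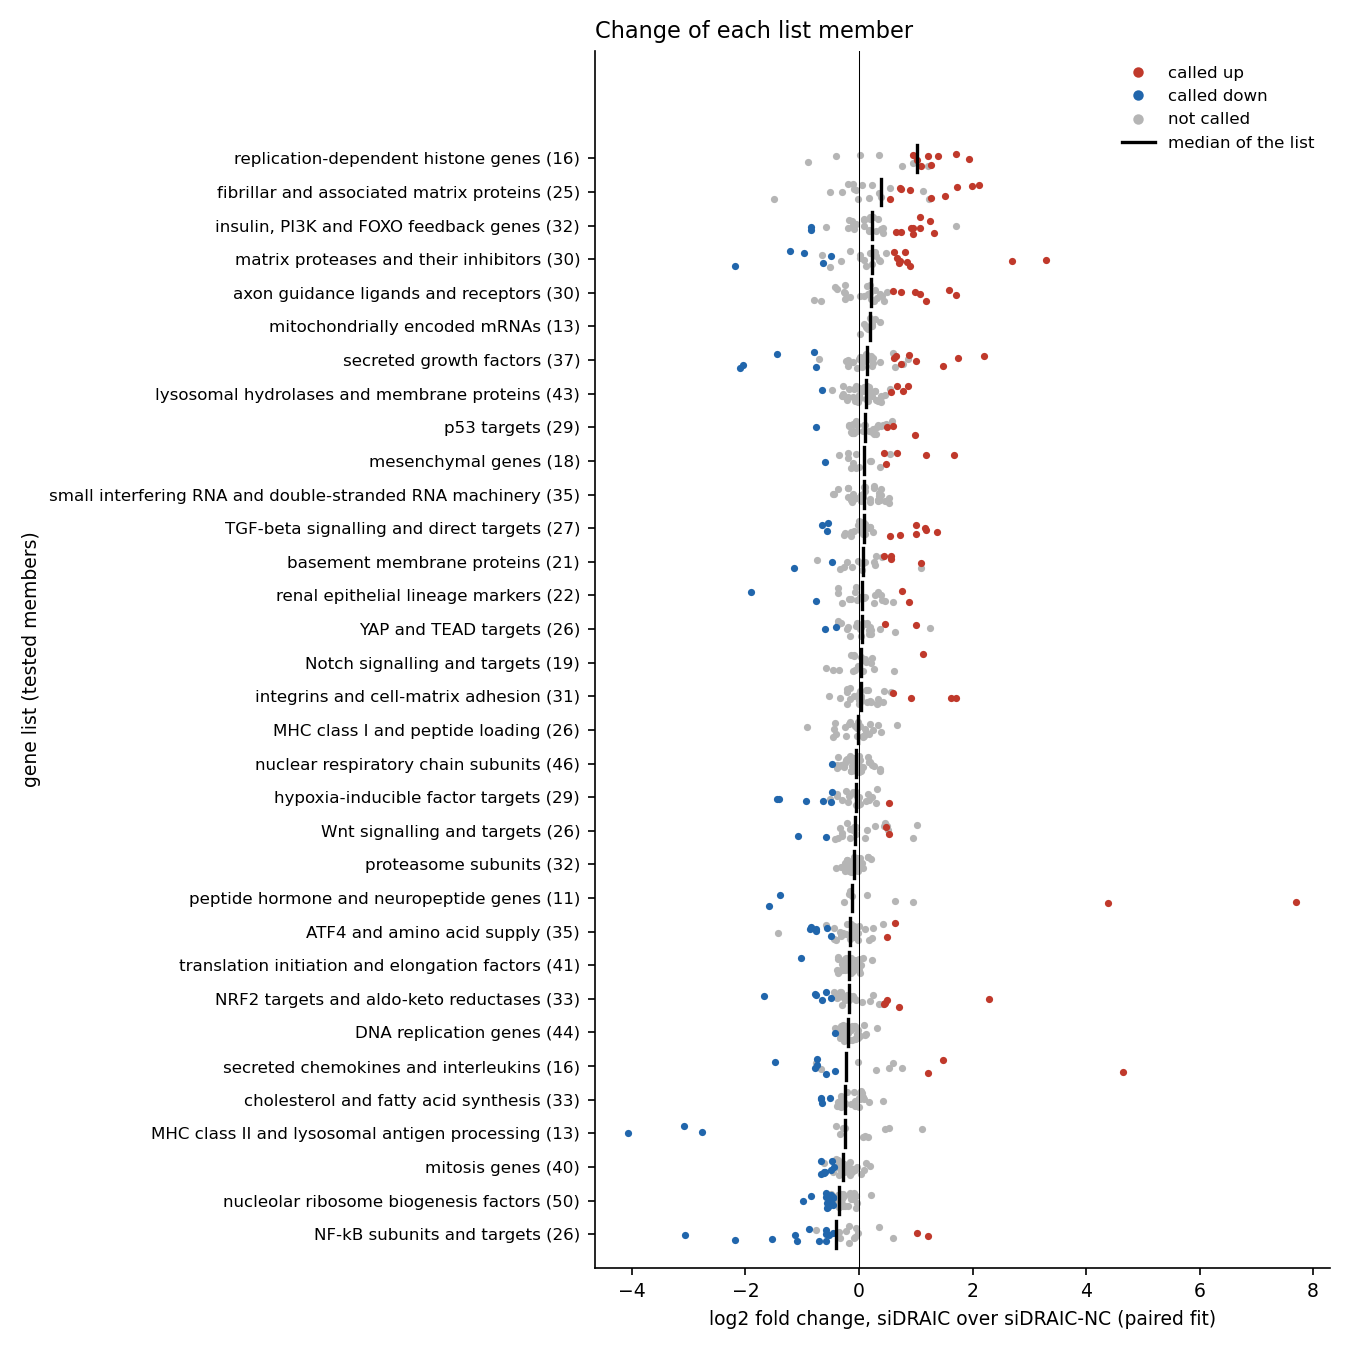
Log2 fold change of each tested member of 33 gene lists in the paired fit, red for called up, blue for called down and grey for not called, with a black bar at the median of the list and the number tested in brackets. Histone genes have the highest median, 1.02, and NF-kB genes the lowest, -0.40.

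Leaving out pair 1, whose control stood apart, gave 9 fibrillar matrix and 7 histone genes up and 12 NF-kB, 10 mitosis and 18 nucleolar genes down. Leaving out pair 3 gave 8 and 4 up and 7, 6 and 16 down.

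Other parts of the protein and energy machinery had few calls. Of 41 translation factors EIF5B alone fell (-1.02; median -0.17), and its level also followed the replicate number, at 128, 53.7 and 24.8 CPM in the controls and 93.8, 21.3 and 10.5 CPM in the libraries labelled siDRAIC. Of 83 cytosolic ribosomal protein genes 1 fell (median -0.17), of 82 mitochondrial ribosomal protein genes 2 (median -0.26), of 46 nuclear respiratory chain genes ATP5MC1 (-0.47), and of 32 proteasome genes edgeR and DESeq2 called 0, with 2 lower at an unadjusted p below 0.05. Lysosomal genes had 4 up and 1 down of 43 tested (median 0.13), among them the alpha-glucosidase GAA (0.77) and the peptidase TPP1 (0.67) up and the sialidase NEU1 (-0.66) down, all lost without the block and without pair 2. All 13 mitochondrially encoded mRNAs had estimates above 0 (median 0.19), but edgeR and DESeq2 called 0 of them, with 2 higher at an unadjusted p below 0.05. Their share of counts was 7.02, 7.41 and 6.79% in the controls and 8.50, 9.26 and 7.67% in the libraries labelled siDRAIC. The groups did not overlap, with an exact permutation p of 0.1, two-sided, the smallest that 3 against 3 allows.

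Renal epithelial markers were present in all libraries and most markers of other cells were rare or at 0. The 11 markers of renal origin summed to 3226 to 3774 CPM in the controls and 3315 to 3725 CPM in the libraries labelled siDRAIC. VIM, also a mesenchymal gene, made up the largest part, with means of 1659 and 1679 CPM. PAX8 and the keratins KRT8 and KRT18 were well expressed, EMX2 was at 0 and KRT19 below 1 CPM. Of 22 lineage genes the kidney cadherin CDH6 (0.88) and CLDN2 rose and AMBP and the brush border peptidase ANPEP (-0.76) fell. Of 18 mesenchymal genes 5 rose and 1 fell: PDGFRB (1.68), TAGLN, MYL9 (0.67), CDH2 (0.44) and TPM2 (0.48) rose, NT5E (-0.59) fell, and VIM, SNAI1 and ZEB1 were at -0.00, -0.06 and -0.20 with no call. Without the block the mesenchymal list had 0 calls, and without pair 2 it had 2 up and 0 down. Fibroblast and pericyte markers summed to 1.73 to 4.91 CPM in the controls and 3.10 to 7.48 CPM in the libraries labelled siDRAIC, of which PDGFRB and RGS5 made up nearly all, with LUM, COL1A2 and DPT at 0 in all 6 and 8 of the 10 below 1 CPM. The rise of this sum lay in PDGFRB, from a mean of 1.28 to 4.24 CPM, while RGS5 went from 1.67 to 1.28 CPM. The sum moved in the direction of the matrix genes, and its part in them was not tested. Macrophage and leukocyte markers summed to 3.49 to 5.77 and 3.23 to 3.77 CPM, with TYROBP, AIF1 and CD3E at 0, and endothelial markers to 1.20 to 1.76 and 0.589 to 1.36 CPM, with EMCN, VWF and ERG at 0. Neuronal markers summed to 224 to 260 and 181 to 201 CPM, nearly all from ENO2 and NEFL, and NEFL (-0.86) and RBFOX3 (-1.84) fell. In bulk RNA fewer cells of a type and less RNA per cell cannot be told apart.

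The hnRNPA2B1 experiment, with 3 libraries labelled sihnRNPA2B1 and 3 labelled sihnRNPA2B1-NC of the same cell line, served to see which changes differed between the experiments. Fitted the same way, it called 28.1% of 15710 tested genes, 14.2% up and 13.9% down. Of 14962 genes tested in both, 730 were called in both, which was 55.1% of the calls in the libraries labelled siDRAIC and 16.8% of those after hnRNPA2B1 siRNA; 651 had the same direction and 79 the opposite one. A direct test of the difference between the changes, on all 12 libraries, passed for 258 of 17091 genes (1.51%; 0.673% with a higher and 0.837% with a lower change in the libraries labelled siDRAIC), among them 156 of the 1404 genes called here (11.1%), or 36 genes without the blocks. Libraries of the same number did not deviate together in the hnRNPA2B1 experiment. No member of the chemokine, class II or NF-kB lists passed the test of the difference. CXCL12, CD74, CTSS, LAPTM5 and C3 are therefore not shown to be particular to the libraries labelled siDRAIC. Among genes that passed, MMP2 changed by -0.10 after hnRNPA2B1 siRNA and differed by 3.36 (edgeR adjusted p = 6.76e-06). THBS1 changed by -0.01 there and differed by 1.25, TXNIP by 0.01 and 1.22, and IRS2 by -0.02 and -0.87. CA12 rose there by 1.06 and AKR1B10 by 1.62, opposite to the libraries labelled siDRAIC, with differences of -2.51 and -3.33. SGK1 stood at -0.64 there (difference 1.92), and H2AC6 rose there by 1.00, less than in the libraries labelled siDRAIC (difference 0.91, edgeR adjusted p = 0.0303). IGF1R had a difference of 0.62, which did not pass (edgeR adjusted p = 0.109). By list, the median was 0.64 for histone genes and -0.37 for NF-kB genes after hnRNPA2B1 siRNA, beside 1.02 and -0.40 here. For YAP and TEAD targets it was -0.30 beside 0.05, and for insulin and FOXO genes -0.01 beside 0.23. Differences between list medians were not tested.

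**Figure D5:**
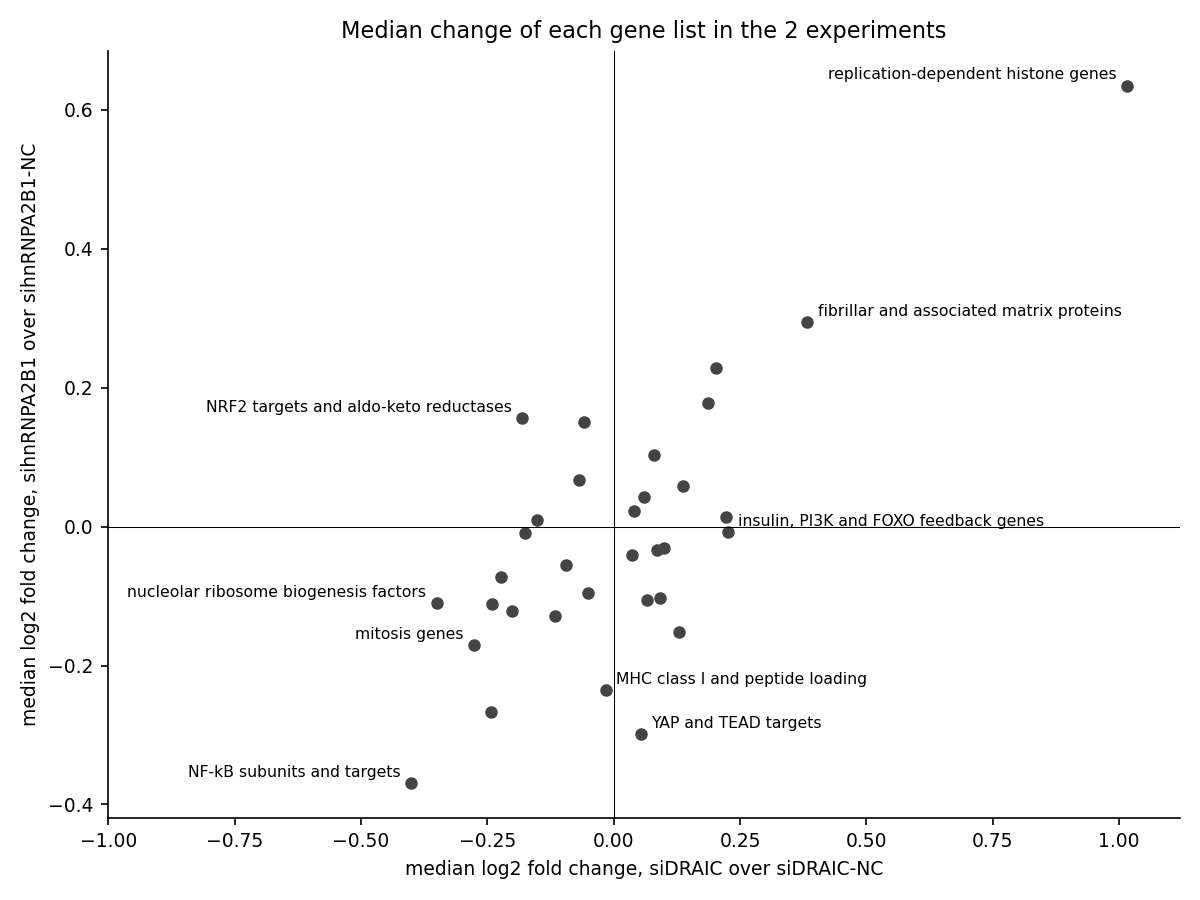
Median log2 fold change of each of 33 gene lists in the libraries labelled siDRAIC (horizontal) and after hnRNPA2B1 siRNA (vertical), each against its own controls, with some lists labelled. Histone genes stand at 1.02 and 0.64 at the upper right, and NF-kB genes at -0.40 and -0.37 at the lower left.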

How the data were processed

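The authors deposited a table of read counts for the DRAIC experiment and another for the hnRNPA2B1 experiment. Per the submitters' processing notes, fastp 0.23.2, STAR 2.7.10a, StringTie, DESeq2 and hg38 were used. The sources used here do not name the counting program, its annotation or its use of strand. The table held 60617 gene IDs, of which 60261 had a symbol and 58542 matched GENCODE 29. A count of 3, taken as the floor of a count of 0, equalled 0.0702 to 0.0852 CPM.

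Genes were kept with edgeR's expression filter (minimum count 10), scaled by TMM and tested with the quasi-likelihood test of edgeR 4.0.16, with replicate number as block. P-values were adjusted by Benjamini-Hochberg over all tested genes, and standard errors were derived from the F statistic. DESeq2 1.42.0 and limma 3.58.1 served as alternatives, and the fits were tested on simulated data. Pairing rests on the shared numbers in the labels: deviations from group means correlated at 0.489, 0.227 and 0.277 between libraries of the same number and at -0.409 to 0.103 between other libraries. Deviations within a group sum to 0, so the lower values between other libraries follow in part from the higher ones. In the hnRNPA2B1 experiment the same numbers correlated at -0.046 to -0.012. Replicates of a group differed far beyond sampling noise.

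Named genes are the 3 of the study's title (DRAIC, HNRNPA2B1, IGF1R), the 8 up and 8 down with smallest p (called in both fits, at least 2-fold, mean of 2 CPM or more), the 8 up and 8 down of highest level, up to 4 called members of a list and up to 3 of a symbol family with 4 or more calls. Other list members are named with values where a list is described. A few genes that these rules take are not reported here. The 37 lists and all members were chosen with earlier results of these data known, and 967 of 1195 list entries passed the filter. GC content, promoters and starts came from GENCODE and RefSeq tables on GRCh38.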

Additional observations from a re-analysis of the deposited data

Results flagged for a closer look

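The change in the libraries labelled siDRAIC differed from that after hnRNPA2B1 siRNA for 258 of 17091 genes in a test of the difference itself, with edgeR and the replicate number as block within each experiment. In 115 of them the change was higher in the libraries labelled siDRAIC and in 143 it was lower. Same-numbered libraries did not deviate together in the hnRNPA2B1 experiment (correlations of -0.046 to -0.012), and without the blocks 36 genes passed. No group held enough libraries for a test of single outlying values.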

How the results depend on the processing

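The number of changed genes, 1404 with the replicate block, depended most on the block and on pair 2. With no replicate block it was 114, with 81.6% of the calls up against 59.3% with the block, and 131 of the 178 named genes lost their call. Asking for at least 2-fold left 451, with 74.9% up. Leaving out 1 pair gave 262 (pair 2, 69.8% up) to 1789 (pair 1, 51.7% up), with 880 without pair 3, and 8, 104 and 58 named genes lost their call without pairs 1, 2 and 3. Pairing aside, leaving out 1 library gave 9 to 1035 calls: 1035 without siDRAIC-NC library 1, which stood apart (501 up and 534 down, 48.4% up), 9 and 15 without siDRAIC-NC libraries 2 and 3, and 95, 31 and 23 without siDRAIC libraries 1, 2 and 3. The cause was not tested. DESeq2 called 1044, limma-voom 1409, RLE size factors 1434, no low-count filter 1144, a stricter filter 1352 and GC offsets with the block, added after seeing the data, 2045. Of the main calls 1020 were shared by edgeR, DESeq2 and limma-voom.

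Directions of named genes held under every setting with the block. Without it, leaving out siDRAIC-NC library 1 turned APC to 0.48, CENPF to 1.04, EIF5B to 0.007, KIF14 to 0.15 and KIF21A to 0.093, and leaving out siDRAIC library 3 turned APC to 0.019 and CENPF to 0.17. Genes whose change differed between the experiments fell from 258 to 36 with no replicate block and to 138 with a difference of at least 1 on the log2 scale. Of the 37 list medians, 35 kept their sign without pair 1, 35 without pair 2 and 34 without pair 3. With 3 libraries a group, exact tests of a single value cannot go below p = 0.1, and DRAIC itself is too rare to follow.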

Other observations

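Gene families were also taken by symbol, and their counts stand beside 8.78% of all tested genes called in edgeR with the block. Of 20 tested protocadherins, adhesion proteins of the cadherin superfamily, 5 rose and 0 were called down in edgeR or DESeq2, with 0 lower at an unadjusted p below 0.05 (median 0.72). PCDH7 measured 6.13, 7.31 and 7.71 CPM in the controls and 12.6, 20.6 and 28.3 CPM in the libraries labelled siDRAIC (log2 fold change 1.45). PCDHGB7 (1.33) and PCDHGA10 (1.71) rose too, but genes of the gamma cluster share exons and their reads may be divided between them. Of 16 aldehyde dehydrogenases, enzymes that oxidise reactive aldehydes and retinal, 7 rose and 1 fell (median 0.44). ALDH5A1 measured 2.92, 4.11 and 2.37 CPM and 6.70, 10.7 and 9.47 CPM, and ALDH1A3 (0.76) and ALDH1A1 (0.78), both of retinoic acid synthesis, rose. Among 39 kinesins, motors of microtubules, 7 fell, among them KIF14 (-0.81) and KIF21A (-0.64), and KIF3C rose (0.66). Without the block 1 protocadherin, 1 aldehyde dehydrogenase and 0 kinesins were called, and without pair 2 PCDHGA10, ALDH1A3, ALDH1A1 and these 3 kinesins lost their calls.

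Of 29 tested protein tyrosine phosphatases 5 rose, among them PTPRJ (0.65), PTPRU (0.71) and PTPN13 (0.53), and of 20 dual-specificity phosphatases 4 fell, among them DUSP16 (-0.98), DUSP23 (-0.51) and DUSP7 (-0.61). Neither phosphatase family had a call without the block. DESeq2 called 2 tyrosine phosphatases up and 3 dual-specificity phosphatases down, and of the 6 genes named only DUSP16 was called without pair 2. Solute carriers moved both ways, with 16 up and 13 down of 258 (1 and 1 unpaired). The organic cation transporter SLC22A3 rose by 1.54 and the GABA transporter SLC6A13 changed by -1.71. Neither was called unpaired (edgeR adjusted p = 0.0555 and 0.401), and SLC6A13 was not called in DESeq2 (adjusted p = 0.0903). Long intergenic RNAs had 13 up and 6 down of 235, near the share of all tested genes, and 0 up and 1 down unpaired, with LINC02154 (2.10), LINC02280 (1.92) and LINC02693 (-1.06) called without any 1 pair.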
